A study of Homo sapiens with 6 samples.

Results

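Small leucine-rich proteoglycans and proteins of mineralized matrix were followed as 10 named genes in cells of U251, a human glioma line long kept in culture. The proteoglycans named are BGN, DCN, ASPN, LUM, PRELP and FMOD, and the other members are MGP, SPP1, SPARC and POSTN. Members were found by gene symbol. Of the 10, 9 have a row among the 16832 gene symbols of each library, and FMOD is not analysed here. The members were chosen by their SLCDS and control FPKM values, among them the differences of BGN and MGP, so the members' own differences are given as descriptions, without p-values, and support nothing further.

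Small leucine-rich proteoglycans are secreted proteins with a core of leucine-rich repeats, most of which carry chondroitin, dermatan or keratan sulfate chains, and they bind collagen fibrils and growth factors such as TGF-beta. Matrix Gla protein, encoded by MGP, inhibits calcification after vitamin K-dependent carboxylation. Osteopontin, SPARC and periostin, encoded by SPP1, SPARC and POSTN, are matricellular proteins, which sit in the matrix and act on cells rather than bear load; osteopontin and SPARC are abundant in bone and in many gliomas.

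The 3 SLCDS libraries come from wild-type U251 cells exposed for 18 days to SLCDS, a mixture of small molecules that is named only by this abbreviation. In the 3 control libraries the same wild-type line had received PBS and no SLCDS, and no culture time is given for them. All samples come from this single line, and no label says that replicates were separate cultures, so p-values measure only the spread between these samples, which may be technical. The values are the authors' FPKM, fragments normalised for transcript length and library depth, a scale on which genes can be compared per length.

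Library depth, derived from the step size of low FPKM values, was about 16600000 to 17200000 fragments in SLCDS and 16300000 to 17000000 in control. Summed FPKM was 3.489e+05 in control replicate 3, against 2.952e+05 and 2.961e+05 in control replicates 1 and 2. In SLCDS it was 3.017e+05 to 3.103e+05. Control replicate 3 stood apart: its Pearson correlation with the other controls across the 11506 tested genes was 0.9765 and 0.9767, against 0.9969 between those 2 and 0.9966 to 0.997 among SLCDS libraries (genes are not independent replicates). List counts and the tested members' log2 fold changes are therefore given with and without it. The neural and glial markers SOX2, VIM, NES, GFAP and SLC1A3 were all above 70 FPKM in every library, while AQP4 stayed below 1 FPKM. GFAP and GJA1 were called lower in SLCDS, and none of the 8 tested glioma and astrocyte markers was called higher. GFAP had 127, 141 and 137 FPKM in SLCDS and 354, 312 and 350.1 FPKM in control. S100B, at 15.0 to 19.7 FPKM in SLCDS and 11.7 to 16.5 FPKM in control, overlapped. Without control replicate 3, NES and S100B were called higher and GFAP, GJA1, SOX2, SOX9 and SLC1A3 lower, where 27.7% of all tested genes were called.

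The members spanned most of the abundance range of these cells. SPARC lay at the percentile 99.95 of all listed genes in SLCDS and 99.97 in control, and SPP1 at 99.1 and 98.1. MGP lay at the percentile 81.7 in SLCDS and 96.4 in control, and BGN at 74.8 and 45.2. POSTN, LUM, PRELP, DCN and ASPN all lay under percentile 31 in both groups. SPARC alone made up 86.8% ± 0.521 of the summed FPKM of the 9 listed members in SLCDS and 91.0% ± 0.681 in control (SD, n = 3 each). Among the 5 listed proteoglycans BGN made up 98.8% ± 0.237 of the summed FPKM in SLCDS and 98.8% ± 1.65 in control.

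**Figure D1:**
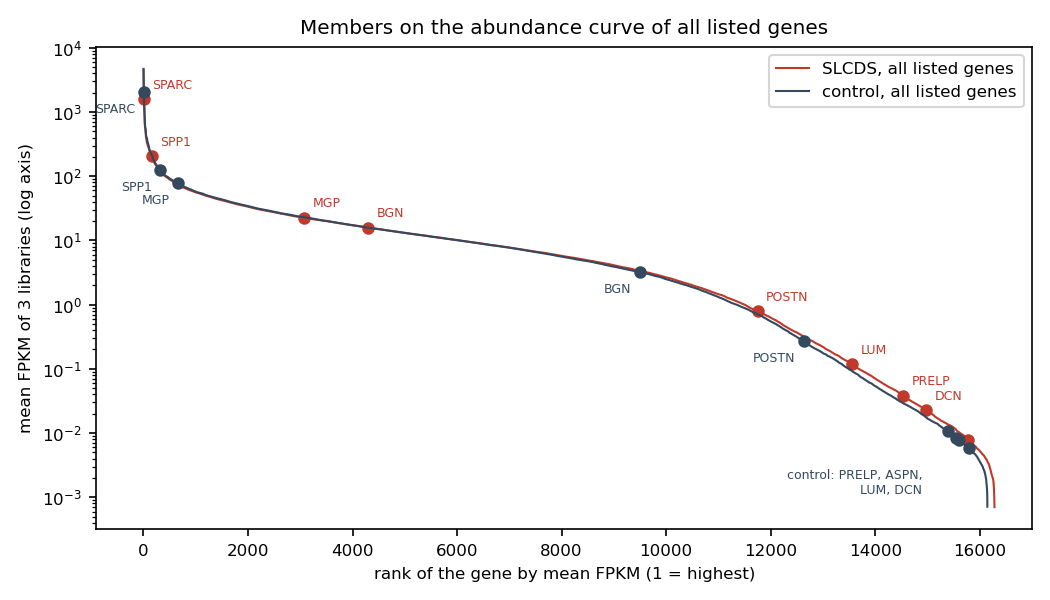
Mean FPKM of 3 libraries (log axis) against the rank of each gene among all listed genes, for SLCDS (red) and control (dark blue); points mark the 9 listed members, and genes with a mean of 0 are not drawn. SPARC and SPP1 sit at the top of both curves, MGP and BGN lie far apart in control and close together in SLCDS, and the other members lie in the tail.

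BGN encodes biglycan, a class I proteoglycan that binds collagen and can signal through Toll-like receptors. It had 16.4, 15.0 and 16.1 FPKM in SLCDS replicates 1 to 3, against 3.63, 2.38 and 3.59 FPKM in control replicates 1 to 3. All SLCDS libraries were far above all controls, and the 2 groups did not come near each other. These values stand for 650, 584 and 648 fragments in SLCDS and 139, 91 and 143 in control. The means were 15.8 ± 0.742 and 3.20 ± 0.710 FPKM in SLCDS and control (SD, n = 3 each), a ratio of means of 4.95. On the log2(FPKM + 1) scale, which understates changes of low genes, BGN was higher by 2.02 (SE 0.13), and by 2.09 without control replicate 3. Among 11506 tested genes it had the 6th highest log2 fold change.

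The 250 bases before the annotated start of BGN and of SPP1, the members that passed the limma threshold as higher in SLCDS, are shown for the short motifs they hold. They come from RefSeq on GRCh38.p14, at chrX:153494730-153494979 (plus strand) for BGN and chr4:87975464-87975713 (plus strand) for SPP1, 5′ to 3′. Capitals mark GGGCGG, the GC box bound by Sp1, in BGN, and AACCACA, a RUNX motif, in SPP1, on either strand.
BGN: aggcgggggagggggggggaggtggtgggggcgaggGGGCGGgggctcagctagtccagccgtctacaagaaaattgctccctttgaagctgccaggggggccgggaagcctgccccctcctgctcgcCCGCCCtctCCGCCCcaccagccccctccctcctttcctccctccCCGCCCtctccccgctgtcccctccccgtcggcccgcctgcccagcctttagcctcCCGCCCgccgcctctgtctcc
SPP1: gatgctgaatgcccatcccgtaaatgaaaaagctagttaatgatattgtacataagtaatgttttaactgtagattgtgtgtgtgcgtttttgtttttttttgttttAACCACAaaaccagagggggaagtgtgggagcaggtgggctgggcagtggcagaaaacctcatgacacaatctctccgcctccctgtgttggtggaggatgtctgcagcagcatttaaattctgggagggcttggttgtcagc

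The BGN window holds 5 GC boxes, which begin 214, 122, 113, 77 and 21 bases before the start. At least 1 GC box is found in 42.6% of the 35116 RefSeq windows of this length, and 5 or more in 4.15%. The SPP1 window holds 1 AACCACA, beginning 143 bases before the start, a motif found in 3.65% of windows. The windows also differ in base composition, with 74.0% G and C and 16 CpG in BGN and 44.8% and 3 CpG in SPP1. Other motifs searched on both strands, none of which overlapped another in these windows, were TATAAA (the TATA box, in 10.7% of windows), TGANTCA (AP-1, 6.57%), GGAATG (TEAD, 11.9%), TGACGT (a CREB motif, 7.10%) and GTCTAGAC (SMAD, 0.182%). None of these others is in the BGN or SPP1 window. A window was given for 7 of the 10 members; outside BGN and SPP1, SPARC has GGAATG beginning 17 bases before its start, PRELP has 2 copies of GGAATG, POSTN has 2 of TATAAA and 1 of TGANTCA, and FMOD has 2 GC boxes and 1 TATAAA. These matches are descriptions of letters and show no binding.

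The other class I proteoglycans were at the edge of detection. DCN, which encodes decorin, a collagen-binding proteoglycan that also holds growth factors, had 0, 0.0344 and 0.0332 FPKM in SLCDS and 0, 0.0175 and 0 FPKM in control. These are 4 fragments over the 3 SLCDS libraries and 1 over the controls, a ratio per depth of 3.92 with an exact 95% counting interval of 0.388 to 193. ASPN, which encodes asporin, a proteoglycan-related protein without a chain attachment site, had 1 fragment in SLCDS replicate 3, 1 in control replicate 2 and 0 elsewhere. Its ratio was 0.980 (0.0125 to 76.9). No difference of DCN or ASPN was detectable at this depth.

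Of the class II members, LUM encodes lumican, a keratan sulfate proteoglycan of collagen-rich tissue. It had 0.156, 0.0678 and 0.131 FPKM in SLCDS, against 0, 0.0230 and 0 FPKM in control, and the groups did not overlap. These are 7, 3 and 6 fragments in SLCDS and 0, 1 and 0 in control, a ratio per depth of 15.7 with an exact counting interval of 2.44 to 657. PRELP, whose product anchors basement membranes to collagen, had 0.0619, 0.0315 and 0.0202 FPKM in SLCDS and 0.0213, 0.0107 and 0 FPKM in control. Its 11 fragments in SLCDS and 3 in control give a ratio of 3.59 (0.949 to 20.1), and the groups overlapped. Intervals cover counting error only and leave out the spread between libraries, and the fragment numbers are the smallest whole numbers that fit a gene's 6 values, so true numbers could be a multiple of them. LUM, PRELP, DCN, ASPN and POSTN lay under the expression filter (1 FPKM in 3 libraries) and were not tested.

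MGP had 22.3, 22.7 and 22.5 FPKM in SLCDS, against 78.8, 63.3 and 91.5 FPKM in control. The SLCDS libraries were nearly identical and all lay below the lowest control. These values stand for 646, 648 and 666 fragments in SLCDS and 2216, 1777 and 2676 in control. The means were 22.5 ± 0.215 and 77.9 ± 14.1 FPKM in SLCDS and control (SD, n = 3 each), a ratio of means of 0.289. The log2 fold change was -1.73 (SE 0.13), the 3rd lowest of the tested genes, and -1.61 without control replicate 3. BGN and MGP thus moved in opposite directions, and the level of BGN relative to MGP was 0.739, 0.662 and 0.715 in SLCDS replicates 1 to 3, against 0.0461, 0.0376 and 0.0392 in control replicates 1 to 3. MGP remained the more abundant of the pair in every library.

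SPP1, the gene of the secreted integrin and CD44 ligand osteopontin, had 215, 203 and 191 FPKM in SLCDS, against 112, 114 and 146 FPKM in control. The groups did not overlap, and control replicate 3 was the highest control. The values stand for 6342, 5887 and 5724 fragments in SLCDS and 3199, 3257 and 4341 in control. The means were 203 ± 12.4 and 124 ± 19.1 FPKM in SLCDS and control (SD, n = 3 each), a ratio of means of 1.63. The log2 fold change was 0.71 (SE 0.12), and 0.83 without control replicate 3. Relative to MGP, the level of SPP1 was 9.04 ± 0.607 in SLCDS and 1.61 ± 0.192 in control (SD, n = 3 each).

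SPARC, whose product binds collagen and calcium and loosens cell adhesion, had 1608, 1594 and 1587 FPKM in SLCDS, against 1985, 1976 and 2242 FPKM in control. All SLCDS libraries lay below all controls. The fragments behind them number 93386, 91105 and 94012 in SLCDS and 111613, 110894 and 131237 in control. The means were 1597 ± 10.8 and 2068 ± 151 FPKM in SLCDS and control (SD, n = 3 each), a ratio of means of 0.772. The log2 fold change was -0.37 (SE 0.13), which did not pass the threshold over all libraries, and -0.31 (SE 0.04) without control replicate 3, which did.

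POSTN, a fasciclin-domain gene whose product binds integrins and collagen, had 0.928, 0.857 and 0.592 FPKM in SLCDS, against 0.493, 0.145 and 0.167 FPKM in control. The groups did not overlap, although the lowest SLCDS library and the highest control lay close together. The values stand for 66, 60 and 43 fragments in SLCDS and 34, 10 and 12 in control. The ratio per depth was 2.96, with an exact counting interval of 2.17 to 4.07. This interval leaves out the spread between libraries, which was wide in control (coefficient of variation 72.5%).

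**Figure D2:**
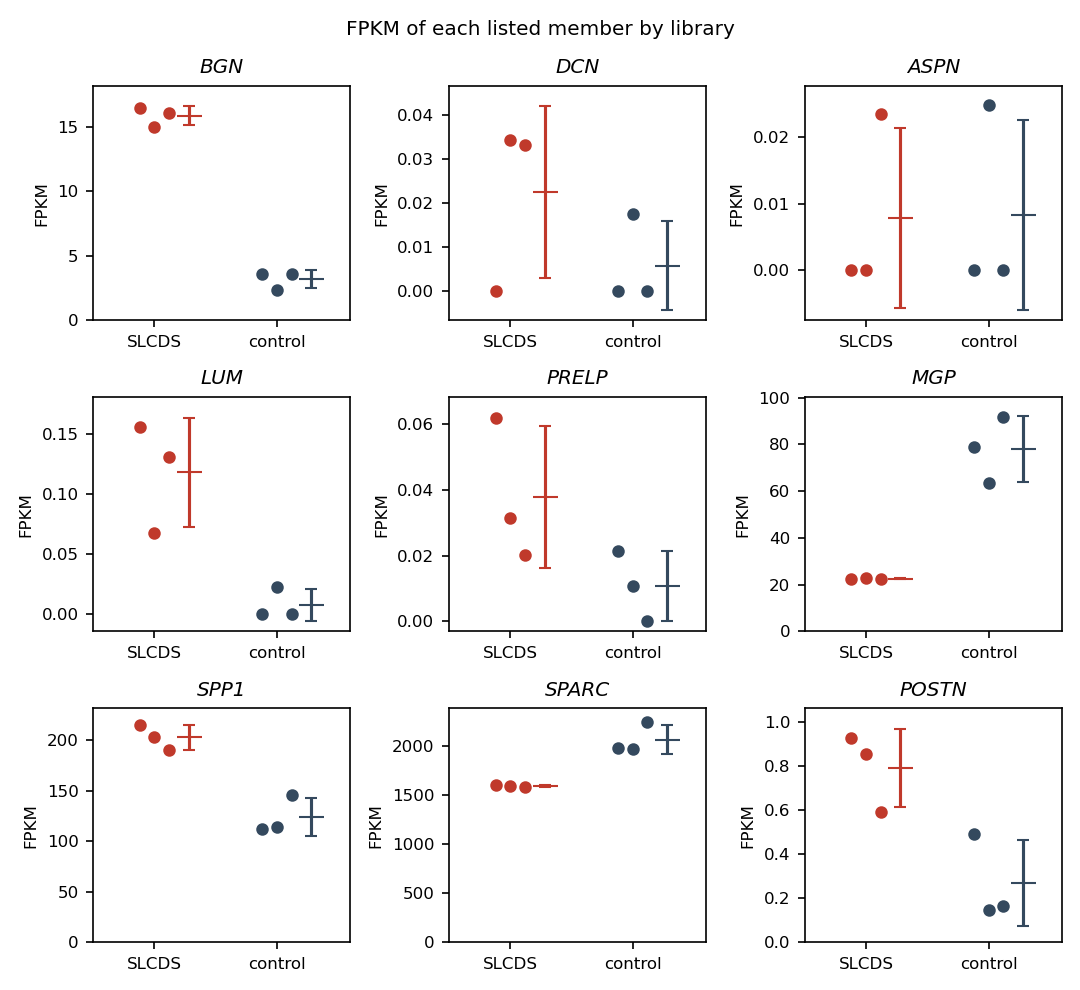
FPKM of each listed member by library, on a linear axis of its own in each panel, with SLCDS at left and control at right; bars beside the points give mean and SD of 3 libraries. BGN, LUM, SPP1 and POSTN were higher and MGP and SPARC lower in all SLCDS libraries than in all controls, while DCN, ASPN and PRELP overlapped.

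Called genes are those with an adjusted p under 0.05 in limma, a linear model of log2(FPKM + 1) fitted across all genes that reached 1 FPKM in at least 3 libraries. Of the members, 4 entered the fit and 3 were called, BGN and SPP1 as higher and MGP as lower, where 6.09% of the 11506 tested genes were called. Of all genes tested, 4.28% were called higher and 1.82% lower. Without control replicate 3 all 4 were called, where 27.7% of tested genes were. The ranges of the 2 groups lay apart for 6 of the 9 listed members and 4 of the 4 tested ones, against 25.2% of all listed and 29.1% of all tested genes. Since the members were chosen with this comparison known, nothing is read from these counts. The call of SPP1 was lost when any 1 library other than control replicate 3 was left out.

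**Figure D3:**
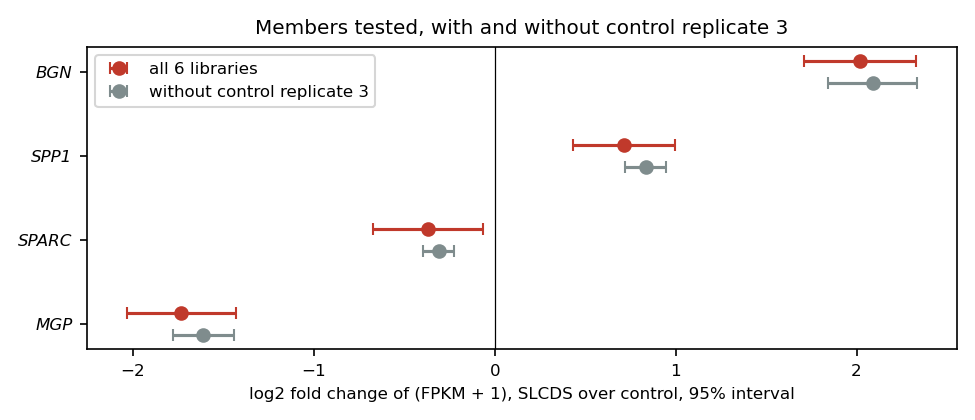
Log2 fold change of (FPKM + 1), SLCDS over control, of the 4 tested members with its 95% interval, over all 6 libraries (red) and without control replicate 3 (grey). Leaving that library out narrowed every interval and changed no direction; BGN went to 2.09, SPP1 to 0.83, SPARC to -0.31 and MGP to -1.61.

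By Euclidean distance between mean-centred log2(FPKM + 1) values over the 6 libraries, the tested genes whose pattern lay nearest to that of BGN were CACNG7 (distance 0.397), IGFBP3 (0.403) and CXCL14 (0.419). CACNG7 encodes a subunit that regulates calcium channels and AMPA receptors, IGFBP3 a carrier of insulin-like growth factors and CXCL14 a chemokine. Their log2 fold changes were 2.13, 1.97 and 1.75 in the same order. Genes picked for a near pattern must have near log2 fold changes, so this likeness supports nothing further. Nearest to MGP were SCRG1 (0.319), ID2 (0.466) and RIPPLY1 (0.537). SCRG1, a secreted protein gene, averaged 1.25 ± 0.0947 FPKM in SLCDS and 5.35 ± 1.01 FPKM in control (SD, n = 3 each).

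Genes that make, modify or bind these proteins were taken from 6 lists written from textbook roles, with 107 genes, of which 63 were tested. Of these 10 were called higher and 1 lower (limma, adjusted p under 0.05), or 17.5%, where the share over all tested genes is 6.09%. FAM20C and NT5E kept their calls in all 16 other settings, while each of the other 9 called genes lost its call when any 1 SLCDS library was left out. Without control replicate 3 the counts were 30 higher and 8 lower, where 27.7% of all tested genes were called, 1838 higher and 1353 lower. The comparison is the same in which the members were proposed. The lists, too, were written with earlier results of these data known. No set test was run, and nothing is read from the share called.

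Among genes that modify or process the proteins, 3 of 11 tested rose, none fell and 8 did not pass. The median log2 fold change was 0.23, against 0.000359 over all tested genes. In the fit without control replicate 3, 5 of the 11 were called higher and 2 lower, where 27.7% of all tested genes were called. FAM20C, the Golgi kinase that phosphorylates secreted proteins such as osteopontin, had 18.7, 16.8 and 17.5 FPKM in SLCDS, against 6.75, 6.96 and 9.23 FPKM in control. Every SLCDS library was well above every control (limma, adjusted p = 0.00226, log2 fold change 1.12, SE 0.12). PCOLCE, an enhancer of procollagen processing, averaged 8.79 ± 0.468 FPKM in SLCDS and 5.59 ± 0.984 FPKM in control (SD, n = 3 each; limma, adjusted p = 0.0299). TPST2, a tyrosine sulfotransferase, averaged 4.99 ± 0.250 and 3.15 ± 0.384 FPKM in SLCDS and control (SD, n = 3 each; limma, adjusted p = 0.0171). The vitamin K carboxylase gene GGCX, which is needed for active matrix Gla protein, did not pass over all 6 libraries; it was picked with its values known and had 9.58, 9.87 and 9.47 FPKM in SLCDS and 10.9, 11.3 and 9.55 FPKM in control. Without control replicate 3 GGCX was called lower (limma, adjusted p = 0.0302, log2 fold change -0.18).

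Of genes that build and sulfate glycosaminoglycan chains 3 of 23 tested rose, none fell and 20 did not pass, with a median log2 fold change of 0.063. CHST2, a sulfotransferase of keratan sulfate-type chains, had 26.7, 24.8 and 26.7 FPKM in SLCDS, against 17.9, 16.5 and 20.8 FPKM in control (limma, adjusted p = 0.0268, log2 fold change 0.49, SE 0.09). CHST11, a chondroitin 4-O-sulfotransferase gene, averaged 9.65 ± 0.0926 and 7.11 ± 0.637 FPKM in SLCDS and control (SD, n = 3 each; limma, adjusted p = 0.0343). PAPSS2, which makes the sulfate donor, averaged 24.6 ± 1.15 and 18.6 ± 0.896 FPKM in SLCDS and control (SD, n = 3 each; limma, adjusted p = 0.0248). Each of the 3 was higher in every SLCDS library than in any control. With control replicate 3 left out, 10 of the 23 were called higher and 3 lower, where 27.7% of all tested genes were called (1838 higher, 1353 lower).

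Of 22 mineralization genes beyond the members 20 were listed and 9 tested, of which 1 rose, none fell and 8 did not pass, with a median log2 fold change of 0.10. With control replicate 3 left out, 3 of the 9 were called higher and 1 lower, where 27.7% of all tested genes were called. NT5E, the ecto-5′-nucleotidase gene whose loss causes arterial calcification in humans, had 45.3, 47.7 and 45.4 FPKM in SLCDS, against 23.1, 27.3 and 27.4 FPKM in control. The groups lay far apart (limma, adjusted p = 0.00217, log2 fold change 0.81, SE 0.09). The phosphate transporter gene SLC20A1 averaged 23.7 ± 0.794 FPKM in SLCDS and 22.8 ± 0.924 FPKM in control (SD, n = 3 each; limma, adjusted p = 0.736). The other 11 listed genes lay under the expression filter and were not tested.

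The SPARC and fasciclin relatives split in direction, with 1 of 5 tested rising, 1 falling and 3 not passing (median log2 fold change 0.23). In the fit without control replicate 3, 3 of the 5 were called higher and 1 lower, where 27.7% of all tested genes were called. TGFBI, the fasciclin relative of POSTN, had 15.6, 13.5 and 15.1 FPKM in SLCDS, against 6.61, 8.75 and 9.91 FPKM in control (limma, adjusted p = 0.0222, log2 fold change 0.75, SE 0.14). SPARCL1, the closest relative of SPARC, had 242, 258 and 244 FPKM in SLCDS, against 327, 314 and 315 FPKM in control (limma, adjusted p = 0.0451, log2 fold change -0.36, SE 0.08). Its call held in only 6 of 16 other settings, with adjusted p values of 0.00017 to 0.25.

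Among receptors of these ligands 2 of 13 tested rose, none fell and 11 did not pass, with a median log2 fold change of 0.27. In the fit without control replicate 3, 9 of the 13 were called higher and 1 lower, where 27.7% of all tested genes were called. ITGB1, the beta chain shared by many matrix receptors, had 151, 150 and 156 FPKM in SLCDS, against 110, 107 and 84.9 FPKM in control (limma, adjusted p = 0.0221, log2 fold change 0.60, SE 0.11). ITGA4, an alpha chain that binds osteopontin, averaged 1.32 ± 0.127 and 0.694 ± 0.178 FPKM in SLCDS and control (SD, n = 3 each; limma, adjusted p = 0.0433), and its call held in 7 of 15 other settings. The osteopontin receptor gene CD44, also picked with its values known, had 96.1, 96.8 and 98.1 FPKM in SLCDS and 86.4, 89.2 and 83.5 FPKM in control (limma, adjusted p = 0.241). CD44 was called higher without control replicate 3 (limma, adjusted p = 0.0184, log2 fold change 0.14). Of the other small leucine-rich proteoglycan genes only TSKU and ECM2 were tested, and neither passed over all 6 libraries (limma, adjusted p = 0.855 and 0.18). Neither passed without control replicate 3 (limma, adjusted p = 0.462 and 0.104). TSKU averaged 21.5 ± 1.29 and 22.4 ± 3.22 FPKM in SLCDS and control (SD, n = 3 each), so it was more abundant per length than BGN in both groups; its log2 fold change was -0.05, and 0.06 without control replicate 3. ECM2 averaged 1.53 ± 0.109 and 1.01 ± 0.308 FPKM in SLCDS and control (SD, n = 3 each).

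**Figure D4:**
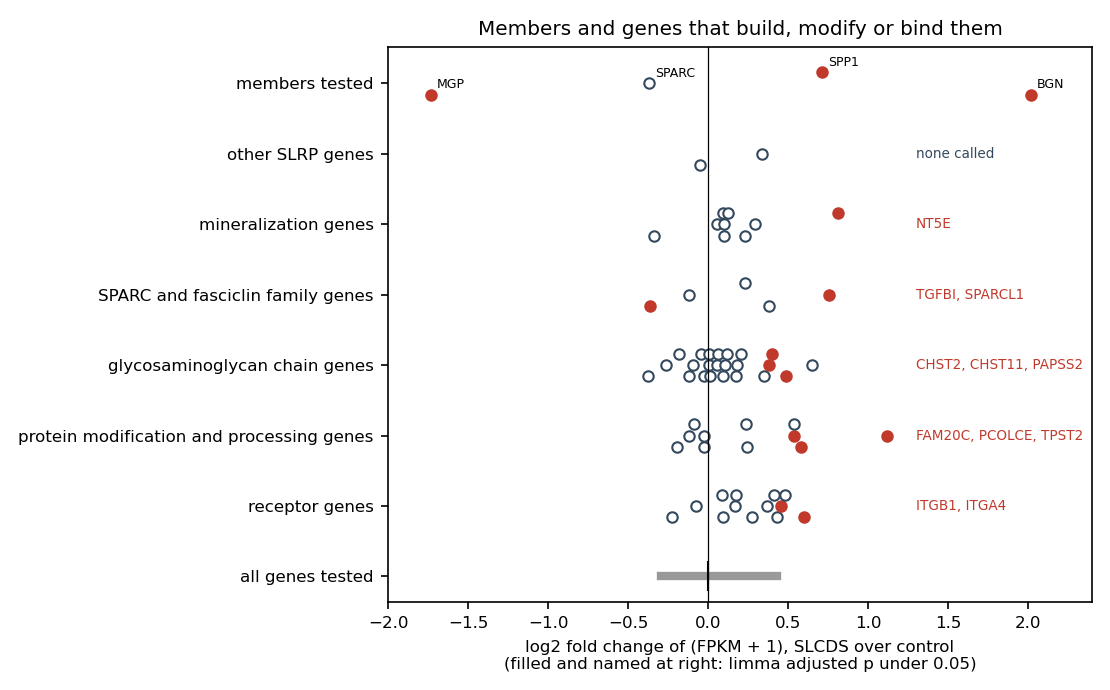
Log2 fold change of (FPKM + 1), SLCDS over control, of the tested members and of 6 lists of related genes; each point is a gene, filled where called by limma, and the bar at the bottom spans the 5th to 95th percentile of all tested genes, with a tick at the median. BGN at 2.02 and MGP at -1.73 lie outside every related gene; FAM20C at 1.12 is the farthest of the related genes.

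Markers of other cell types were read beside these results; in bulk RNA, fewer cells of a type and less RNA per cell cannot be told apart. Of 6 listed osteoblast markers 4 were below 1 FPKM in all libraries, and their summed level, nearly all from RUNX2, was 12.7 to 13.4 FPKM in SLCDS and 10.4 to 13.3 FPKM in control. Chondrocyte markers summed to 105 to 108 FPKM in SLCDS and 114 to 130 FPKM in control, nearly all from SOX9, with 5 of 7 below 1 FPKM. Macrophage and microglia markers, which matter for SPP1, summed to 0.800 to 1.41 FPKM in SLCDS and 1.42 to 1.98 FPKM in control, with 7 of 8 below 1 FPKM. Fibroblast and pericyte markers summed to 422 to 430 FPKM in SLCDS and 427 to 458 FPKM in control, and COL1A2 held most of the sum. Of 6 tested, PDGFRB and ACTA2 rose and none fell over all libraries. Without control replicate 3, PDGFRB and ACTA2 were called higher and THY1 lower, where 27.7% of all tested genes were called. Among those not tested, COL1A1 was lower and COL3A1 and CSPG4 were higher in all SLCDS libraries than in all controls. No marker listed was at 0 in all 6 libraries. Endothelial markers summed to 4.96 to 5.88 FPKM in SLCDS and 2.12 to 3.00 FPKM in control. CDH5, the 1 tested, held most of the sum in every library and rose. KDR averaged 0.382 ± 0.0714 FPKM in SLCDS and 0.502 ± 0.194 FPKM in control (SD, n = 3 each). The KDR values of the groups overlapped. The part of the fibroblast, pericyte and endothelial markers in the differences of BGN and MGP was not tested.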

How the data were processed

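RNA of 3 SLCDS and 3 control samples of U251 cells was sequenced after TRIzol extraction and VAHTS Universal V6 library preparation, per the labels' protocols. The authors deposited FPKM values on a linear scale, 1 file a library. The builds named per the submitters' processing notes are GRCm38 and mm10; aligner, counter and annotation remain not given in the sources used here. As the symbols are human, sequences come from RefSeq (GRCh38.p14) and no coordinates from the files are used.

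Groups and replicate numbers came from the titles. The 11506 genes that reached 1 FPKM in 3 libraries were tested on log2(FPKM + 1) with limma 3.58.1 in R 4.3.3 (variance prior following the mean, 2-sided, Benjamini-Hochberg). FPKM values were converted to fragments by their steps: 2153 of 2721 low genes (79.1%) had whole-number ratios within a tolerance of 0.004, and every member did within 0.02. Absolute depth came from 299 genes with a single annotated transcript in GENCODE 29, of which 155 (51.8%) lay within a window of 5%. The members and lists were chosen with earlier results of these data known. Named list genes are up to 4 called genes with the largest change, or the 2 most abundant where fewer than 2 were called; exceptions are stated. The fit was also run on simulated data in which a gene had the same spread in every library. That run did not cover a library that stands apart, such as control replicate 3. Alternatives were other pseudocounts (0.1 and 0.5), filters, scalings, priors, a replicate block and each library left out. Other steps ran in Python 3.11.15 (pandas 2.3.3, numpy 2.4.6), figures in matplotlib 3.10.9 and exact intervals in scipy 1.17.1.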

Additional observations from a re-analysis of the deposited data

How the results depend on the processing

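Over the 16 alternatives BGN stayed called higher (log2 fold change 1.87 to 2.30) and MGP called lower (-1.87 to -1.61). The members were chosen by these same values, so a member's call that held is a description and supports nothing further. FAM20C and NT5E stayed called higher. Of the members and the list genes named by rule, TSKU and ASPN changed sign, ASPN with 2 fragments in all. TSKU had -0.05 over all libraries and -0.1125 to 0.0604 with 1 library left out, positive without control replicate 3 and never called. Of the markers named, RUNX2 (0.10 over all libraries, -0.00046 without control replicate 3) and COL1A2 (-0.035 and 0.0016) also changed sign, and neither was called in these 2 fits. SPP1 kept its call in 11 of 16, and SPARC, not called over all libraries, was called in 3 of 16. Called genes numbered 701 (492 higher, 209 lower), 324 with a mean FPKM of at least 5, 455 (346 and 109) with the replicate block, 844 (518 and 326) with quantile normalization and 2024 (1042 higher, 982 lower) with the length and GC trend removed. Leaving out 1 library gave 276 to 3191 called genes, 2 to 4 members, 1 to 4 mineralization genes, 0 to 4 SPARC and fasciclin genes, 0 to 13 glycosaminoglycan genes, 1 to 7 modification genes and 0 to 10 receptor genes, each highest without control replicate 3. Without a filter 2 of 20 mineralization genes, 1 of 10 SPARC and fasciclin genes and 5 of 30 glycosaminoglycan genes were called. Over all genes 833 of 16832 were called in that setting. With a mean FPKM of at least 5, 1 of 3 SPARC and fasciclin genes and 1 of 10 receptor genes were called. Quantile normalization gave 1, 5 and 1 for SPARC and fasciclin, glycosaminoglycan and receptor genes. A robust prior gave 1 SPARC and fasciclin gene, with 676 genes called in all. A pseudocount of 0.1 gave 1 receptor gene, with 685 called in all. With the length and GC trend removed 7 glycosaminoglycan, 7 modification and 6 receptor genes were called. The cause of these shifts was not tested. The replicate block gave 1 SPARC and fasciclin gene, 1 glycosaminoglycan gene and 0 receptor genes. Deviations of same-numbered samples from their group means correlated at -0.33, 0.36 and 0.065 for numbers 1 to 3. SLCDS replicate 2 correlated at 0.37 and 0.36 with control replicates 1 and 2, and at -0.41 with control replicate 3. Whether the numbers pair the samples cannot be decided this way, because control replicate 3 shapes the deviations of all controls. Depth limits DCN, ASPN, LUM and PRELP, which rest on 2 to 17 fragments in all.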

Other observations

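The neighbours of BGN in the RefSeq gene order were both higher in all SLCDS libraries than in all controls. Across all listed genes the groups lay apart for 25.2%, and any link of these neighbours to BGN was not tested. HAUS7, a subunit of the augmin complex of the mitotic spindle, had 16.5, 16.6 and 14.5 FPKM in SLCDS, against 8.11, 8.24 and 12.5 FPKM in control (log2 fold change 0.69, SE 0.16), and did not pass over all 6 libraries (limma, adjusted p = 0.0507). Without control replicate 3 it was called higher (log2 fold change 0.88, limma, adjusted p = 9.4e-06). ATP2B3, a plasma membrane calcium pump gene, lay near 0, with 0.0375, 0.0445 and 0.0980 FPKM in SLCDS and 0.00645, 0.0129 and 0.0062 FPKM in control. The listed neighbours of MGP, C12orf60 and ARHGDIB, stayed under 1 FPKM and overlapped between groups. DCN, LUM and KERA lie next to each other, and KERA, the keratocan gene, was at 0 in all SLCDS libraries and at 0, 0 and 0.0268 FPKM in control. DMP1, the nearest listed gene on one side of SPP1, was at 0, 0.0165 and 0 FPKM in SLCDS and at 0 in all controls.

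With all controls counted, the spread between replicates of the 4 tested members was narrower in SLCDS than in control, but for SPARC and SPP1 the direction turned without control replicate 3. The coefficient of variation was 0.957% in SLCDS and 18.1% in control for MGP, 0.679% and 7.32% for SPARC, 4.68% and 22.2% for BGN, and 6.12% and 15.3% for SPP1. Over controls 1 and 2 alone, an alternative chosen after seeing the data, the control value was 0.334% for SPARC and 1.39% for SPP1, below SLCDS, and 15.4% for MGP and 29.4% for BGN, above SLCDS. The spread was narrower in SLCDS for 83.9% of tested genes against all 3 controls and for 41.5% against controls 1 and 2. A spread over 2 libraries is not measured like a spread over 3. The comparison with controls 1 and 2 therefore cannot decide which group was wider, for these members or for all tested genes. Control replicate 3 was the highest control for MGP, SPP1 and SPARC and lay between the others for BGN; over all tested genes it was the highest control for 47.0% and the lowest for 43.9%.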
